A study of Rattus norvegicus with 6 samples.

Results

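The genes described here are 36 genes of glycolysis and of the cellular response to low oxygen. They were chosen by gene symbol from a table of 24005 symbols that the authors deposited, and all 36 were listed in it. Expression was measured by RNA-seq in rat aorta in a model of chronic kidney disease, in 3 libraries from rats given engineered exosomes and 3 libraries from rats given saline. The label of every sample says aorta, while the design text also speaks of thoracic aorta. Exosomes are small vesicles released by cells. The exosome group received a preparation named ANCR/E7-EXO in the labels, at a dose of 10 mg/kg once every 5 days by tail vein injection, and the saline group received an equal volume of saline over 13 weeks. Rats of both groups had lost 5/6 of their kidney mass in a staged nephrectomy and ate a diet with 1.2% phosphorus to speed up calcification, so no library analysed here came from a rat with intact kidneys. The labels give neither strain, age nor sex, nor whether a library held RNA of a single animal, so the p-values measure the spread between these libraries only.

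Values are FPKM, which are reads scaled to the length of a gene and to the total of its library. The implied library totals were 28063355 to 44561082 reads or read pairs in the exosome group and 29665532 to 34009970 in the saline group. The labelled tissue fitted its markers, since 6 smooth muscle markers summed to 14643 to 20825 FPKM in exosome libraries and to 13213 to 21016 FPKM in saline libraries. Some libraries stood apart. The summed level of 8 heat shock genes was 5266, 1121 and 9527 FPKM in exosome 1, 2 and 3, against 1359 to 2095 FPKM with saline. The summed level of 10 early response genes was 367 to 618 FPKM with exosomes and 903 to 2178 FPKM with saline. Cardiac muscle markers summed to 21.6 FPKM in exosome 3, against 0.894 and 0.758 FPKM in exosome 1 and 2 and 0.313 to 1.10 FPKM with saline. The part of cardiac muscle in the exosome 3 values was not tested. Markers of endothelium summed to 124 to 197 FPKM with exosomes and to 79.9 to 112.5 FPKM with saline, and those of macrophages to 103 to 124 FPKM with exosomes and to 73.0 to 84.0 FPKM with saline. All 6 endothelial and all 6 macrophage markers had positive differences, and 0 of either list passed the test. Adipocyte markers ranged from 374 to 659 FPKM in exosome libraries and from 333 to 1120 FPKM in saline libraries, with the highest value in saline 2, and 5 of 6 had negative differences.

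Glycolysis splits glucose into pyruvate in the cytosol and yields ATP without oxygen. Lactate dehydrogenase then interconverts pyruvate and lactate, while the pyruvate dehydrogenase complex turns pyruvate into acetyl-CoA inside the mitochondria. Hypoxia-inducible factors (HIFs) are transcription factors whose alpha subunits are marked for destruction by oxygen-dependent prolyl hydroxylases, and when oxygen is short they raise glucose transporters, most glycolytic enzymes and genes of mitophagy and acid handling. The thick wall of the aorta is fed partly from the lumen and partly from small vessels in the adventitia, and its smooth muscle is known for a high rate of lactate production even with oxygen present.

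HIFs bind DNA at short elements with the core ACGTG or GCGTG. Promoter windows of 250 bases before the start of each gene are given here for Ddit4, Ankrd37, Egln3 and Ldhb. They are among the genes of the module whose exosome and saline libraries did not overlap. Pkm also had no overlap, and its window, which is not printed, held neither core on either strand. Sequences are from RefSeq on GRCr8, 5′ to 3′ on the strand of the gene, with matches to ACGTG or GCGTG on either strand in capitals. The windows are chr20:28437038-28437287 (minus strand) for Ddit4, chr16:53001257-53001506 (plus strand) for Ankrd37, chr6:77411016-77411265 (minus strand) for Egln3 and chr4:177177409-177177658 (minus strand) for Ldhb.
Ddit4: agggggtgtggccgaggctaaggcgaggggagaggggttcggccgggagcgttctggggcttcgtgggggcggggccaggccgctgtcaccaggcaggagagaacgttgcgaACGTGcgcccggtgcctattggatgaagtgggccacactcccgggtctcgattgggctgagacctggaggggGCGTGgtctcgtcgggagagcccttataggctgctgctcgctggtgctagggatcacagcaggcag
Ankrd37: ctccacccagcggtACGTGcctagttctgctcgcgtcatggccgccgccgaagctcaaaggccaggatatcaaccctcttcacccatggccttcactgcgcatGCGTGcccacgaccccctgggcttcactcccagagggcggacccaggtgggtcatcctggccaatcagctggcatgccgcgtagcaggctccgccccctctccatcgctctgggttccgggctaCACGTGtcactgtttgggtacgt
Egln3: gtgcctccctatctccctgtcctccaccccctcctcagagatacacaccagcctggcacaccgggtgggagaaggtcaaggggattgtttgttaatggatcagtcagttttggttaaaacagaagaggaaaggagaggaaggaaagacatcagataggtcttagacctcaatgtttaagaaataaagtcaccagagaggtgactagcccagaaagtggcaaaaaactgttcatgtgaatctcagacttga
Ldhb: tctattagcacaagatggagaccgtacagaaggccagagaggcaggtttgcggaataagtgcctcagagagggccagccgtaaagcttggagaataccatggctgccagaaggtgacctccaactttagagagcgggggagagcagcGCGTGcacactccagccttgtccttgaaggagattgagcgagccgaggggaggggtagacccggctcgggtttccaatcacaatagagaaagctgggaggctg
Ddit4 had 2 matches, Ankrd37 had 4, with CACGTG counted on both strands, Egln3 had 0 and Ldhb had 1. RefSeq promoters were at hand for 32 of the 36 genes, without Slc2a3, Ndrg1, Bnip3l and Pgk1. At least 1 match stood in 22 of the 32, or 68.8%, against 36.7% of all 33469 promoters of the same length and 39.6% of genes. The median GC content was 63.6% for windows of the module and 51.2% for all promoters, and its part in the share was not tested. Ldha, Bnip3, Slc2a1 and Ankrd37 had at least 4 matches, as did 2.44% of all promoters. A match is a description of letters, not a binding site, and no match says only that these letters are not in this window.

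No gene of the module passed the test between exosome and saline libraries. Of the 36 genes, 33 had a mean of at least 1 FPKM and were tested with limma on log2(FPKM + 1). Of these, 0 passed a Benjamini-Hochberg adjusted p of 0.05 over all 11742 genes tested, where 0.00852% of all genes, a single gene, passed. Adjusted p-values of the 33 ran from 0.289 to 0.994. With limma-voom on whole reads that were worked back from the FPKM values, 0 of the 33 passed as well. At an unadjusted p under 0.05 stood 3 of the 33, where 16.0% of all genes had such a p. Of these Ddit4 was higher, where 6.75% of all genes were, and Egln3 and Ldhb were lower, where 9.24% of all genes were. The 3 exosome libraries and the 3 saline libraries did not overlap for 4 of the 33, against 21.1% of all genes tested. Those were Ddit4, which was higher with exosomes, against 9.40% of all genes, and Egln3, Ldhb and Pkm, which were lower, against 11.7%. Differences were negative for 22 of the 33 and positive for 11, with a median log2 difference of -0.12, beside a median of -0.07 over all genes, of which 39.3% were positive. After rescaling of the libraries to the median of ratios, 16 of the 33 were positive and the median was -0.05. Over all genes, 48.4% were then positive and the median was -0.01. The count of negative values thus depended on the scaling, in the module and over all genes.

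**Figure D1:**
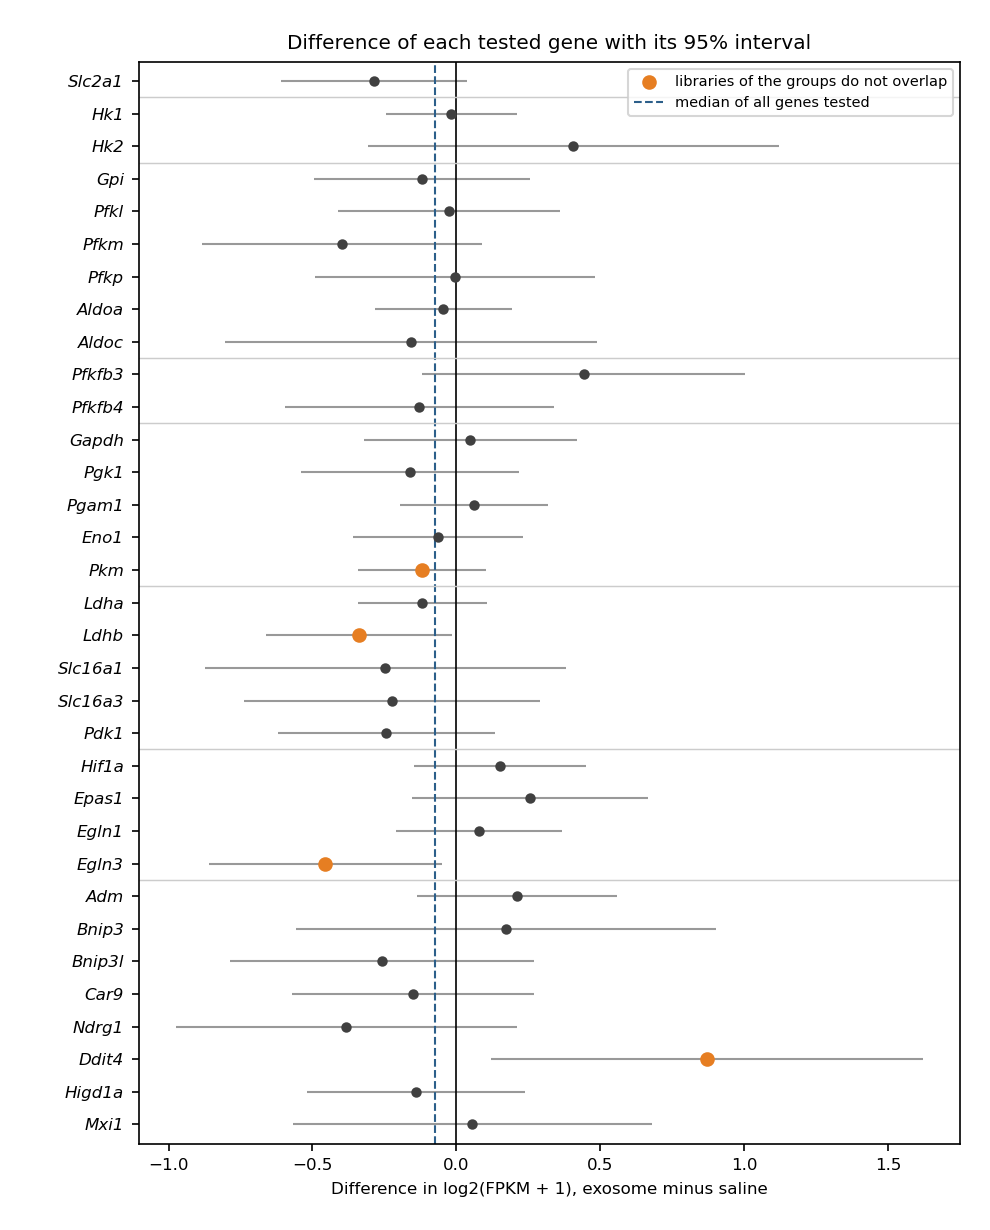
Difference of each of the 33 tested genes in log2(FPKM + 1), exosome minus saline (horizontal axis), with its 95% interval from limma; grey lines part the roles, the dashed line is the median of all genes tested (-0.07), and orange points are the 4 genes whose libraries did not overlap. Intervals of Ddit4, Egln3 and Ldhb lie to 1 side of 0, and none of the 33 passed after adjustment.

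Levels spanned a wide range. Aldoa, which encodes the main aldolase, had the highest level of the module, at 239 to 268 FPKM over the 6 libraries, and stood above 97.9% of all tested genes. Gapdh followed at 178 to 256 FPKM, Ldhb at 133 to 216 FPKM and Pkm, which encodes pyruvate kinase, at 143 to 168 FPKM. Each of these overlapped its neighbour in the order over the 6 libraries, so the order from Aldoa down to Adm (4.02 to 5.78 FPKM) describes means only. The first gap without overlap lay between Adm and Car9, a carbonic anhydrase at the cell surface and a classic HIF target, which had 1.12 to 2.16 FPKM. Pfkfb4 had a mean of 1.06 FPKM, just inside the minimum of the test, and Tpi1 and Ankrd37 lay just outside it with means of 0.790 and 0.748 FPKM. Slc2a3, which encodes the glucose transporter GLUT3, was listed at 0 in all 6 libraries. The annotation and the counting of reads are not given in these sources, so the 0 does not show that the gene was silent.

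**Figure D2:**
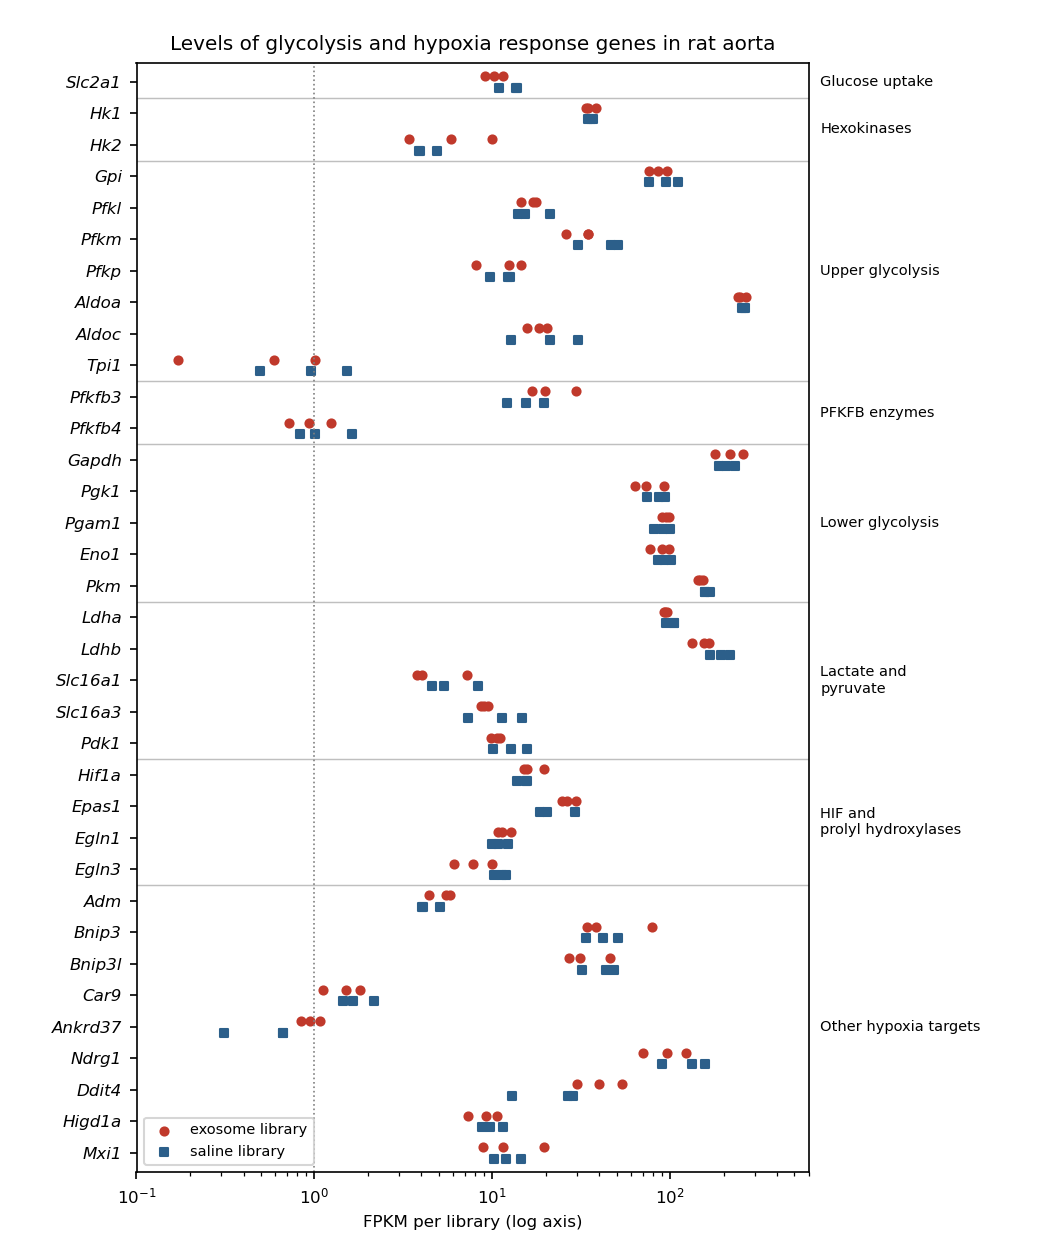
FPKM of each gene in each library on a log axis (horizontal), with genes grouped by role and the dotted line at 1 FPKM; circles are exosome libraries and squares saline libraries. Aldoa is highest at 239 to 268 FPKM and Ankrd37 and Tpi1 are lowest, Slc2a3 is left out because it was listed at 0, and the circles and squares of most genes overlap.

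Tpi1 stood out among the enzymes. Triosephosphate isomerase is needed in every cell that runs glycolysis, yet Tpi1 was listed at 1.005, 0.591 and 0.1705 FPKM in exosome 1, 2 and 3 and at 0.494, 0.954 and 1.52 FPKM in saline 1, 2 and 3, from 11 to 75 reads per library. Of its neighbours in the pathway, Aldoa had 10116 to 16597 reads and Gapdh 7238 to 16548 reads per library. RefSeq's GRCr8 gene table names 3 pseudogenes and 2 like genes of Tpi1, and how the authors counted reads that match several places is not given in these sources, so the Tpi1 values are uncertain. The same table names pseudogenes for 13 of the 36 genes, among them 81 for Gapdh, 31 for Eno1, 30 for Ldha and 19 for Pkm, and levels of these genes may miss or gain reads of the copies.

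GLUT1, the product of Slc2a1, is a widespread glucose transporter and a HIF target. Slc2a1 had 11.5, 9.10 and 10.3 FPKM in exosome 1, 2 and 3, against 13.5, 10.9 and 13.9 FPKM in saline 1, 2 and 3. The groups overlapped through exosome 1 and saline 2. The log2 difference was -0.29 ± 0.14 (SE), and limma gave an adjusted p of 0.345 and a 95% interval from -0.61 to 0.04. In bulk tissue, fewer cells of a type and less RNA per cell cannot be told apart, here and in all that follows.

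Hexokinases trap glucose in the cell by phosphorylation. Hk1, the form found in most tissues, had 33.7, 34.5 and 38.2 FPKM with exosomes and 35.7, 37.1 and 34.7 FPKM with saline, and the groups overlapped almost wholly. Hk1 differed by -0.02 ± 0.10 (SE) on the log2 scale, with an adjusted p of 0.939 and a 95% interval from -0.24 to 0.21. Hk2, the form that insulin and HIFs induce, had 5.84, 3.41 and 9.93 FPKM in exosome 1, 2 and 3 and 3.94, 4.89 and 3.87 FPKM in saline 1, 2 and 3. Its high values lay in exosome 1 and 3, the libraries with the high heat shock sums, and exosome 2 was the lowest of all 6. The log2 difference of Hk2 was 0.41 (adjusted p = 0.508), and it was -0.24 with exosome 1 and 3 both left out and 0.08 without exosome 3. The part of the heat shock response in these values was not tested.

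The upper steps of glycolysis rearrange and split the sugar. All 6 tested genes of these steps had negative differences, from -0.40 to -0.00, with adjusted p-values from 0.370 to 0.994. The median of -0.08 lay next to the -0.07 of all genes. Pfkm, the muscle form of phosphofructokinase, which commits sugar to glycolysis, had 34.4, 34.7 and 25.9 FPKM with exosomes and 30.5, 46.6 and 50.8 FPKM with saline. Saline 2 and 3 were above all exosome libraries, while saline 1 was below 2 of them. Its log2 difference was -0.40 ± 0.21 (SE; limma adjusted p = 0.370). The Pfkm difference was -0.26 without exosome 3, -0.26 without saline 3 and -0.62 without saline 1. Pfkl, the liver form, had 14.6 to 17.6 FPKM with exosomes and 14.05 to 21.2 FPKM with saline, and Pfkp, the platelet form, had 8.15 to 14.5 FPKM with exosomes and 9.69 to 12.5 FPKM with saline. Gpi, which turns glucose phosphate into fructose phosphate, had 75.6 to 96.5 FPKM with exosomes and 76.1 to 110.9 FPKM with saline. Aldoa had 268, 239 and 247 FPKM in exosome 1, 2 and 3, against 253, 261 and 265 FPKM in saline 1, 2 and 3. With a log2 difference of -0.05 ± 0.10 (SE), an adjusted p of 0.831 and a 95% interval from -0.28 to 0.19, it was among the most evenly expressed of the module. Aldoc, the brain form of aldolase, was more spread, at 15.8 to 20.3 FPKM with exosomes and 12.8 to 30.3 FPKM with saline.

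The PFKFB enzymes make and remove the sugar phosphate that activates phosphofructokinase. Pfkfb3, whose product mainly makes it and which is known for driving glycolysis in endothelial cells, had 16.6, 29.6 and 19.7 FPKM in exosome 1, 2 and 3 and 12.1, 19.6 and 15.5 FPKM in saline 1, 2 and 3. Exosome 2 was the highest library, and exosome 1 lay below saline 2. The log2 difference of Pfkfb3 was 0.44 ± 0.24 (SE), and limma gave an adjusted p of 0.384. The difference of Pfkfb3 was 0.28 without saline 1 and 0.22 without exosome 2, which also had the highest endothelial sum, 197 FPKM, and the part of that sum in the value was not tested. Pfkfb4 had 0.719 to 1.24 FPKM with exosomes and 0.833 to 1.63 FPKM with saline, from 82 to 142 reads per library.

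The lower steps harvest ATP. Of their 5 genes 3 had negative and 2 had positive differences, from -0.16 to 0.06. Gapdh, which starts this payoff phase and is often used as a reference gene, had 218, 178 and 256 FPKM with exosomes and 233, 188 and 205 FPKM with saline. Exosome 2 was its lowest and exosome 3 its highest library. The log2 difference was 0.05 ± 0.16 (SE; limma adjusted p = 0.888), and its sign turned without exosome 3 (-0.08) and without saline 2 (-0.02). Pkm, whose product makes pyruvate, had 153, 143 and 147 FPKM with exosomes and 156, 157 and 168 FPKM with saline. The Pkm libraries did not overlap, with exosome 1 just under saline 1, but the gap was small. Its log2 difference was -0.12 ± 0.09 (SE), and limma gave an adjusted p of 0.532. Pgk1, a kinase and a standard HIF target, had 63.1 to 92.8 FPKM with exosomes and 74.4 to 94.2 FPKM with saline. Eno1, which encodes the widespread enolase, had 77.3 to 99.1 FPKM with exosomes and 85.3 to 101.3 FPKM with saline, and Pgam1, a mutase, had 90.5 to 98.7 FPKM with exosomes and 81.4 to 100.4 FPKM with saline. Over the 15 tested enzymes from hexokinase to lactate dehydrogenase the median log2 difference was -0.06, next to -0.07 for all genes.

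Genes of lactate and pyruvate handling all had negative differences, and 0 of 5 passed. Ldhb encodes the heart-type subunit of lactate dehydrogenase, which favours lactate use. Ldhb had 165, 156 and 133 FPKM in exosome 1, 2 and 3 and 167, 216 and 192 FPKM in saline 1, 2 and 3. All exosome libraries lay below all saline libraries, although exosome 1 and saline 1 nearly met. The log2 difference was -0.34 ± 0.14 (SE; limma adjusted p = 0.306), with a 95% interval from -0.66 to -0.02, and it ran from -0.43 to -0.25 over the 18 alternatives. Ldha, the muscle-type subunit, which HIFs induce, had 92.0 to 96.3 FPKM with exosomes and 94.5 to 105.8 FPKM with saline (log2 difference -0.12, adjusted p = 0.541). Pdk1 encodes a kinase that turns off pyruvate dehydrogenase under hypoxia. It had 9.87, 11.1 and 10.7 FPKM with exosomes and 10.1, 15.7 and 12.7 FPKM with saline. The highest value lay in saline 2, the library with the highest adipocyte sum, and the log2 difference of -0.24 ± 0.16 (SE, adjusted p = 0.455) was -0.10 without saline 2 and -0.39 without saline 1. Slc16a1, the lactate transporter MCT1, also peaked in saline 2, with 3.77 to 7.25 FPKM with exosomes and 4.57 to 8.29 FPKM with saline. Slc16a3, the lactate exporter MCT4, was lowest there, with 8.70 to 9.51 FPKM with exosomes and 7.34 to 14.7 FPKM with saline. The part of adipocytes in these values was not tested.

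Shares of isozymes do not depend on how a library is scaled. They were computed for 30 genes in 10 families as a percentage of the summed FPKM of the family, and 3 libraries against 3 cannot go below an exact two-sided permutation p of 0.10. The groups did not overlap for 8 of the 30 shares, beside 21.1% of all genes tested whose levels did not overlap. Shares of Pfkl, Eno1, Pdk4, Hif3a and Egln2 were higher and those of Eno3, Pdk2 and Egln3 lower with exosomes. Shares of 1 family are tied because they sum to the whole. Aortic hexokinase was mainly Hk1, at 84.9 ± 5.84% with exosomes and 89.2 ± 0.837% with saline (SD, n = 3 each). Phosphofructokinase was mainly Pfkm, at 52.9 ± 5.30% with exosomes and 59.6 ± 5.66% with saline. Lactate dehydrogenase was mainly Ldhb, whose share was 63.2, 62.8 and 58.8% in exosome 1, 2 and 3 and 61.2, 67.2 and 67.0% in saline 1, 2 and 3. The Ldhb shares overlapped between the groups (exact permutation p = 0.30), which its levels did not. Eno1 took 88.1 ± 0.951% of enolase with exosomes and 84.3 ± 2.35% with saline, and Eno3, the muscle form, took 11.8 ± 0.922% with exosomes and 15.2 ± 2.51% with saline. Both shares were apart between the groups, at the smallest p the design allows, 0.10, and at 0.375 after adjustment over the 30 shares. Skeletal muscle markers summed to 51.1 to 58.8 FPKM with exosomes and 49.1 to 68.8 FPKM with saline. Of the 8 listed, Myh4, a fast myosin, stood at 0 in all 6 libraries. Over the 6 libraries, Acta1 had 17.4 to 39.1 FPKM, Tnnt3 13.6 to 24.2 FPKM and Ckm 6.44 to 12.4 FPKM. Mylpf had 1.04 to 1.99 FPKM, Atp2a1 0.540 to 1.75 FPKM, Myh1 0.00975 to 0.109 FPKM and Myh2 0 to 0.0911 FPKM. The part of skeletal muscle in the Eno3 share was not tested.

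**Figure D3:**
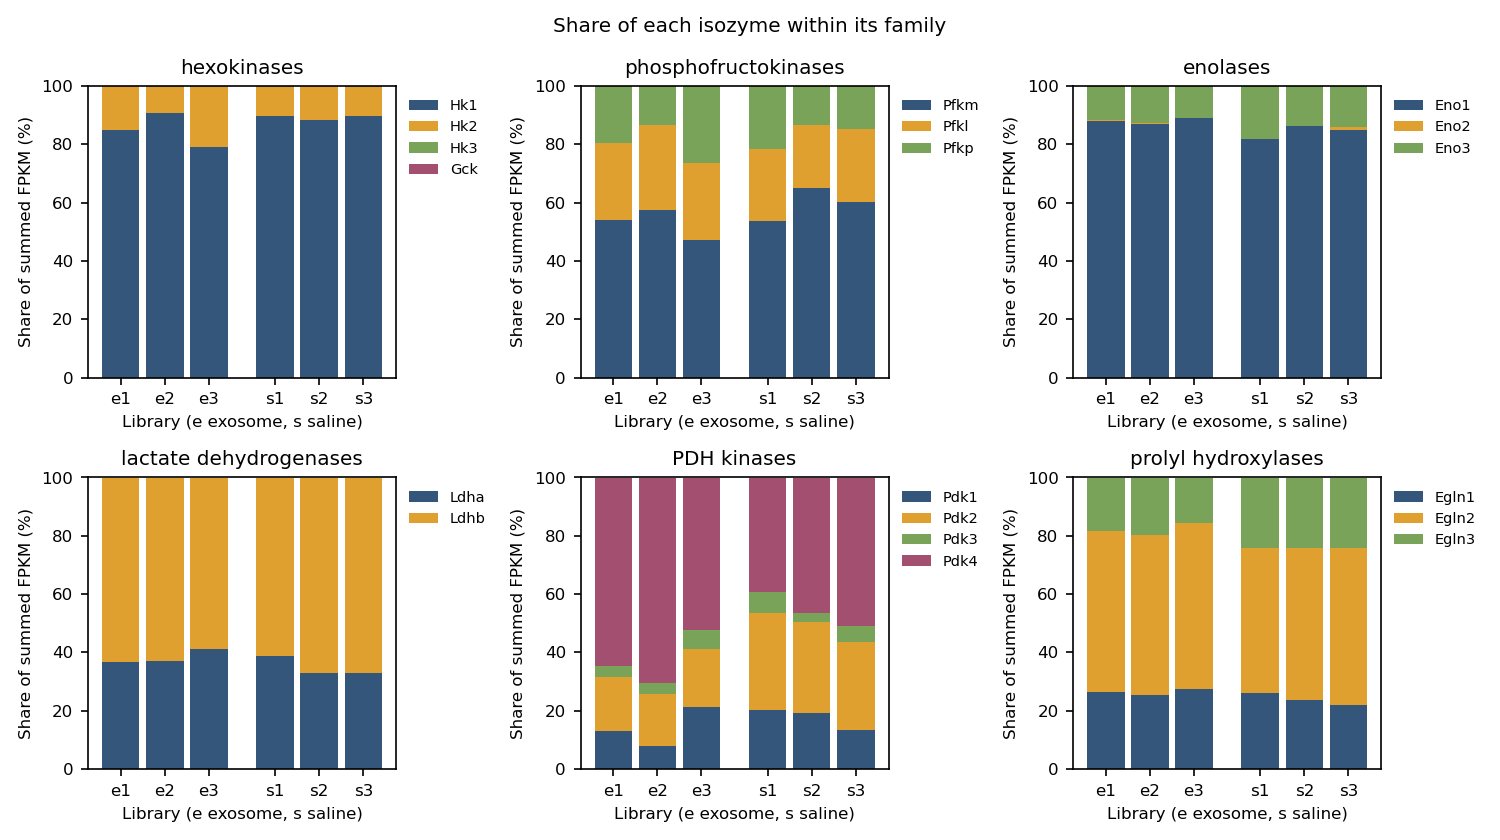
Stacked bars give the share of each isozyme in the summed FPKM of its family (vertical axis, percent) for exosome libraries 1 to 3 on the left (e1 to e3) and saline libraries 1 to 3 on the right (s1 to s3) of each panel. Hk1, Eno1 and Ldhb are the main forms in every library, and the Egln3 share is lower in the 3 exosome libraries, at 15.5 to 19.8%, than in the 3 saline libraries, at 24.1 to 24.2%.

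Neither HIF alpha gene of the module passed the test. Hif1a, whose product is the widespread alpha subunit, had 15.7, 15.1 and 19.6 FPKM with exosomes and 15.6, 15.4 and 13.8 FPKM with saline (log2 difference 0.15, 95% interval from -0.15 to 0.45, adjusted p = 0.553). Epas1 encodes HIF-2 alpha, a subunit best known from endothelium, and had 24.5, 29.7 and 26.2 FPKM with exosomes and 18.5, 29.1 and 20.2 FPKM with saline. Saline 2 reached the exosome values while saline 1 and 3 lay below them. Its log2 difference was 0.26 ± 0.18 (SE), and limma gave an adjusted p of 0.469. For Epas1 it was 0.13 without saline 1 and 0.44 without saline 2. The endothelial marker sums given above were higher in every exosome library than in every saline library, and their part in the Epas1 values was not tested.

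Prolyl hydroxylases sense oxygen and mark HIF alpha subunits for removal. Egln1, which encodes the main one, PHD2, had 10.8 to 12.8 FPKM with exosomes and 9.97 to 12.2 FPKM with saline. Egln3 encodes PHD3, is itself a HIF target and is high in smooth muscle. Egln3 had 7.84, 10.0 and 6.07 FPKM in exosome 1, 2 and 3 and 11.3, 10.2 and 11.9 FPKM in saline 1, 2 and 3. All exosome libraries lay below all saline libraries, with exosome 2 close to saline 2. The log2 difference was -0.46 ± 0.17 (SE; limma adjusted p = 0.291), with a 95% interval from -0.86 to -0.05. The adjusted p was 0.0833 without exosome 2. That was the lowest of any gene of the module in the alternatives other than a fit with library weights. The Egln3 difference was -0.30 (adjusted p = 0.645) without exosome 3. It shrank to -0.14 when exosome 2 alone stood for its group. As a share of the 3 prolyl hydroxylase genes, Egln3 held 18.3, 19.8 and 15.5% with exosomes and 24.2, 24.1 and 24.2% with saline. The Egln3 share did not overlap between the groups, at an exact permutation p of 0.10, the smallest possible, and 0.375 after adjustment over the 30 shares. Egln2, which encodes PHD1, held 55.7 ± 1.17% with exosomes and 52.0 ± 2.25% with saline (SD, n = 3 each), also without overlap.

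Of the 8 tested genes among the other hypoxia targets 4 had positive and 4 had negative differences, and 0 passed. Ddit4 encodes REDD1, a brake on mTOR signalling that hypoxia, stress and glucocorticoids induce. Ddit4 had 39.7, 53.9 and 29.8 FPKM in exosome 1, 2 and 3 and 26.5, 12.9 and 28.4 FPKM in saline 1, 2 and 3. All exosome libraries were above all saline libraries, but exosome 3 was only just above saline 3. The means were 41.1 ± 12.1 FPKM with exosomes and 22.6 ± 8.46 FPKM with saline (SD, n = 3 each), a ratio of 1.82. The log2 difference was 0.87 ± 0.32 (SE), the largest of the module in size, with an adjusted p of 0.289. It was 0.53 (adjusted p = 0.509) without saline 2, whose value was the lowest.

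Ankrd37, a small ankyrin-repeat gene and a well-known HIF target, lay below the minimum of the test. Ankrd37 had 1.07, 0.842 and 0.942 FPKM with exosomes and 0.665, 0.664 and 0.309 FPKM with saline, from 18 to 32 reads per exosome library and 8 to 17 reads per saline library. The libraries did not overlap. With no minimum, the log2 difference was 0.34 and the adjusted p was 0.393 in limma. The span of Ankrd37 overlaps that of Lrp2bp in the GRCr8 gene table, and without knowledge of strand in the counting the reads of overlapping genes cannot be told apart. Other genes of the module overlap neighbours too, among them Pfkm (Senp1), Slc16a3 (Csnk1d), Tpi1 (Spsb2) and Higd1a (Ccdc13).

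**Figure D4:**
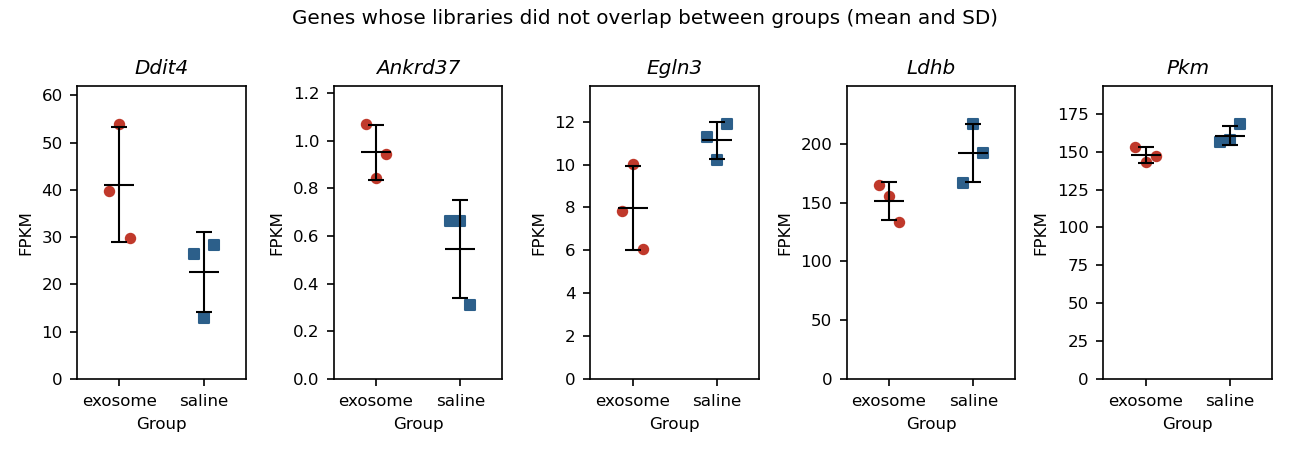
FPKM (vertical axes, from 0) of the 5 genes whose libraries did not overlap, with exosome libraries left and saline libraries right in each panel; bars are the mean and SD of 3 libraries. Ddit4 and Ankrd37 are higher with exosomes, and Egln3, Ldhb and Pkm are lower, with narrow gaps between the nearest libraries.

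BNIP3 and its relative NIX, the product of Bnip3l, tag mitochondria for removal. Bnip3 had 38.2, 79.5 and 34.2 FPKM in exosome 1, 2 and 3 and 33.7, 50.7 and 42.2 FPKM in saline 1, 2 and 3. Exosome 2 alone stood above the saline range, and the log2 difference of 0.17 (adjusted p = 0.787) was -0.20 without it. Bnip3l had 31.0, 46.2 and 26.9 FPKM with exosomes and 32.1, 48.2 and 43.4 FPKM with saline (log2 difference -0.26, adjusted p = 0.564), and it was 0.18 with exosome 1 and 3 both left out. Mxi1, an antagonist of MYC, had 8.84, 19.5 and 11.5 FPKM with exosomes and 10.2, 12.0 and 14.5 FPKM with saline. Here too exosome 2 was the highest library. Ndrg1, a stress-induced gene and the most abundant of these targets, had 96.3, 123 and 70.6 FPKM with exosomes and 90.5, 132 and 156 FPKM with saline. Saline 3 was its highest and exosome 3 its lowest library, and the log2 difference was -0.38 ± 0.25 (SE, adjusted p = 0.455). The Ndrg1 difference was -0.18 without exosome 3, -0.21 without saline 3 and -0.60 without saline 1. With exosome 1 and 3 both left out it was -0.0048. Adm, which encodes the vasodilator peptide adrenomedullin, had 4.41 to 5.78 FPKM with exosomes and 4.02 to 5.06 FPKM with saline. Higd1a, a mitochondrial survival factor under hypoxia, had 7.30 to 10.6 FPKM with exosomes and 8.80 to 11.6 FPKM with saline. Car9 had 1.12 to 1.82 FPKM with exosomes and 1.44 to 2.16 FPKM with saline, from 77 to 199 reads per library.

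Genes of the module differed in how far libraries of a group varied. The within-group SD of log2(FPKM + 1) was 0.05 for Pkm, 0.06 for Aldoa, 0.07 for Ldha and 0.07 for Hk1, the lowest of the 33, and it was 0.52 for Ddit4, 0.50 for Bnip3, 0.48 for Hk2 and 0.44 for Aldoc, the highest. The median over the 33 genes was 0.23, next to 0.19 over all genes tested. Exosome 2 held the lowest value of 12 genes of the 33 and the highest of 6. Its 8 tested hypoxia targets had a median deviation of 0.25 from the gene means and its glycolytic enzymes one of -0.11, on opposite sides of the gene means. Saline 2 and saline 3 each held the highest value of 8 genes, and exosome 1 that of 1.

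**Figure D5:**
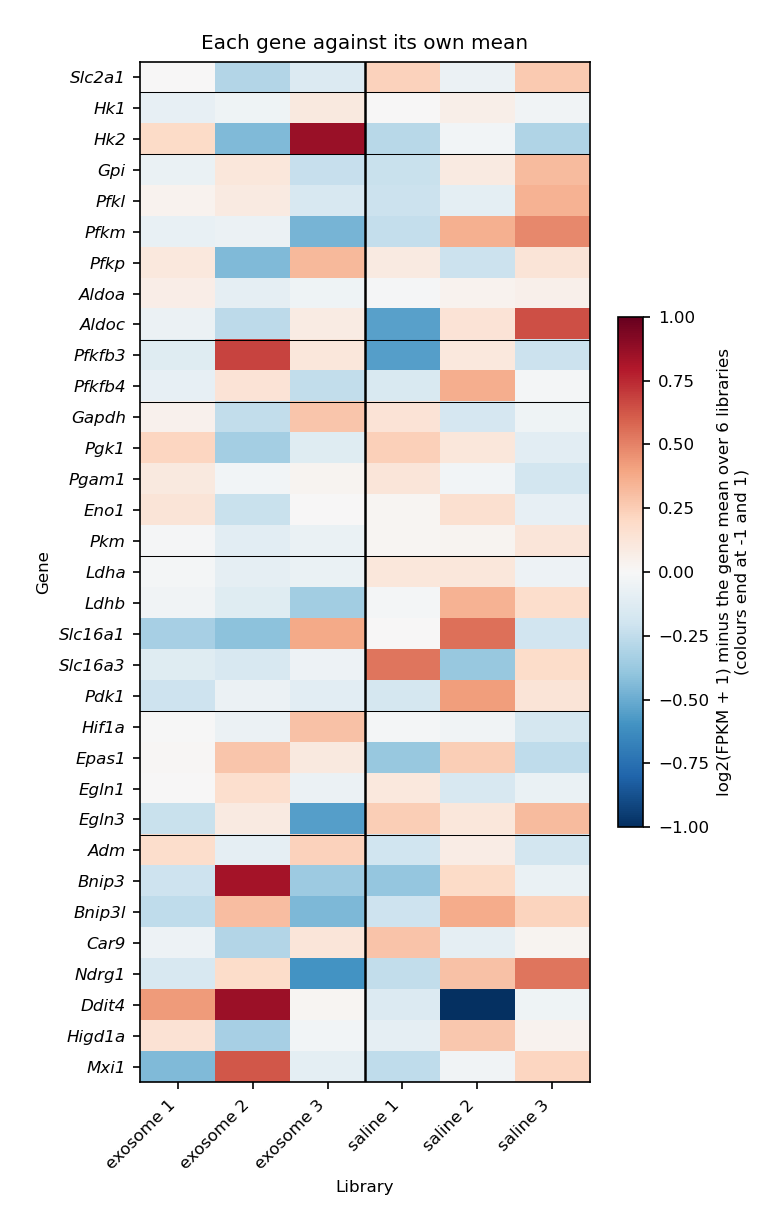
Each row is 1 of the 33 tested genes and each column a library (exosome 1 to 3 left of the line, saline 1 to 3 right of it); colour is log2(FPKM + 1) minus the mean of that gene over the 6 libraries. Exosome 2 is dark red for Bnip3, Ddit4, Pfkfb3 and Mxi1, exosome 3 for Hk2, and saline 2 is dark blue for Ddit4, while the rows of Pkm, Aldoa, Ldha and Hk1 are pale.

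Another 7 lists of related genes were set beside the module, and 0 genes of these lists passed over all genes tested. Of 13 tested other genes of glycolysis and hexose handling 12 were negative and 1 positive, with a median of -0.36, beside -0.07 over all genes, of which 39.3% were positive. Libraries did not overlap for 5 of the 13, all lower with exosomes, where 11.7% of all genes were apart and lower. Slc2a4 encodes GLUT4, the insulin-responsive glucose transporter of muscle and fat. Slc2a4 had 34.9, 29.4 and 18.5 FPKM in exosome 1, 2 and 3 and 48.4, 44.2 and 43.3 FPKM in saline 1, 2 and 3, so its groups were apart. The log2 difference of Slc2a4 was -0.74 ± 0.21 (SE), and limma gave an adjusted p of 0.261. It was -0.49 without exosome 3. Per length, Slc2a4 had a higher FPKM level than Slc2a1 in each library. Eno3 had 11.0 to 13.3 FPKM with exosomes and 14.03 to 20.4 FPKM with saline (log2 difference -0.46, adjusted p = 0.283). Gpd2, which encodes the mitochondrial glycerol phosphate dehydrogenase of an electron shuttle, had 2.502 to 3.62 FPKM with exosomes and 4.47 to 5.69 FPKM with saline (log2 difference -0.51, adjusted p = 0.270).

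Glycogen genes had 10 negative and 1 positive difference among 11 tested, with a median of -0.24. Over all genes the median was -0.07 and 39.3% were positive. Pygb, the brain form of glycogen phosphorylase, had 81.1, 86.1 and 59.1 FPKM with exosomes and 96.6, 112 and 137 FPKM with saline, with no overlap (log2 difference -0.61 ± 0.18 SE, adjusted p = 0.261). Pygl, the liver form, had 2.40, 2.76 and 3.53 FPKM with exosomes and 3.12, 14.1 and 7.21 FPKM with saline. It peaked in saline 2, and its log2 difference was -1.05 (adjusted p = 0.304), or -0.59 without saline 2. Gys1, which encodes muscle glycogen synthase, had 3.77 to 6.97 FPKM with exosomes and 6.71 to 7.63 FPKM with saline (adjusted p = 0.308). All 7 tested genes of the pentose phosphate pathway were negative, with a median of -0.14, beside the same -0.07 over all genes. Tkt, which encodes transketolase, had 60.7 to 61.8 FPKM with exosomes and 62.3 to 100.01 FPKM with saline (log2 difference -0.35, adjusted p = 0.339), and the Tkt difference was -0.18 without saline 2. Pgls and Rpe, both enzymes of that pathway, differed by -0.17 and -0.16 on the log2 scale, with adjusted p-values of 0.444 and 0.506, and Rpe was at -0.08 without exosome 1 and -0.24 without exosome 2.

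Genes by which pyruvate enters mitochondrial metabolism had 12 negative and 2 positive differences among 14 tested. Their median was -0.22, beside -0.07 over all genes. Libraries did not overlap for 5 of the 14, all lower with exosomes, where 11.7% of all genes were apart and lower. Pdp2 encodes a phosphatase that switches pyruvate dehydrogenase on. Pdp2 had 3.999, 3.998 and 3.24 FPKM in exosome 1, 2 and 3 and 6.17, 9.58 and 6.20 FPKM in saline 1, 2 and 3. The groups lay well apart, and the log2 difference was -0.79 ± 0.18 (SE; limma adjusted p = 0.255). Mpc1, a subunit of the mitochondrial pyruvate carrier, had 44.9 to 49.6 FPKM with exosomes and 53.1 to 64.5 FPKM with saline (log2 difference -0.27, adjusted p = 0.308). Pdhx, a structural subunit of pyruvate dehydrogenase, had 4.26 to 5.61 FPKM with exosomes and 5.42 to 8.26 FPKM with saline (log2 difference -0.41, adjusted p = 0.309). The kinases that oppose Pdp2 were named after their values were seen. Pdk2 held 18.7 ± 0.965% of the 4 kinase genes with exosomes and 31.6 ± 1.66% with saline (SD, n = 3 each), and Pdk4 held 62.5 ± 9.30% with exosomes and 45.5 ± 5.77% with saline. The shares of both kinases did not overlap between the groups, each with an exact permutation p of 0.10, the smallest possible, and 0.375 after adjustment over the 30 shares. Levels of both kinases did overlap. Pdk2 had 9.87 to 24.9 FPKM with exosomes and 16.8 to 28.5 FPKM with saline (limma adjusted p = 0.397). Pdk4 had 26.1 to 98.4 FPKM with exosomes and 19.8 to 48.0 FPKM with saline (limma adjusted p = 0.548).

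HIF pathway genes were split, with 7 positive and 6 negative among 13 and a median of 0.03. Hif3a, whose alpha subunit can restrain the others, had 2.73, 11.0 and 2.95 FPKM in exosome 1, 2 and 3 and 1.18, 1.27 and 1.85 FPKM in saline 1, 2 and 3. Its groups did not overlap, but exosome 2 was far above the rest. The log2 difference of Hif3a was 1.22 ± 0.43 (SE, adjusted p = 0.285), and it was 0.67 without exosome 2. Cited2, which competes with HIFs for a coactivator, had 14.1 to 27.7 FPKM with exosomes and 25.1 to 38.0 FPKM with saline (adjusted p = 0.302), and Crebbp, that coactivator, had 8.01 to 9.58 FPKM with exosomes and 7.37 to 7.74 FPKM with saline (adjusted p = 0.367).

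A list of further hypoxia targets also held Pfkfb3 of the module and Gys1 of the glycogen list, which are left out of its counts here. Of the other 24 tested 15 were positive and 9 negative, with a median of 0.07. Libraries did not overlap for 5 of the 24, with 4 higher and 1 lower with exosomes, where 9.40% of all genes were apart and higher and 11.7% apart and lower. P4ha2 encodes a collagen prolyl hydroxylase subunit and had 40.5, 34.4 and 46.5 FPKM with exosomes, against 27.3, 29.8 and 31.9 FPKM with saline (log2 difference 0.43 ± 0.13 SE, adjusted p = 0.266). Hmox1, the heme-degrading enzyme of stress and of macrophages, had 5.12, 4.26 and 6.69 FPKM with exosomes and 2.97, 3.51 and 3.65 FPKM with saline (log2 difference 0.52 ± 0.17 SE, adjusted p = 0.275). Macrophage marker sums did not overlap between the groups either, as given above, and their part in the Hmox1 values was not tested. Ppfia4 had 0.868 to 1.70 FPKM with exosomes and 2.36 to 5.22 FPKM with saline (log2 difference -0.95, adjusted p = 0.256). Glucose-sensing genes had 2 positive and 3 negative differences. Mlxip, which encodes the glucose-responsive transcription factor MondoA, had 10.0, 11.9 and 11.3 FPKM with exosomes and 8.24, 8.30 and 8.47 FPKM with saline, with no overlap (log2 difference 0.37 ± 0.11 SE, adjusted p = 0.261). Txnip, which glucose induces and which limits glucose uptake, had 227 to 334 FPKM with exosomes and 193 to 265 FPKM with saline (adjusted p = 0.498), and Mlx, the dimer partner of MondoA, had 15.7 to 16.7 FPKM with exosomes and 15.7 to 19.1 FPKM with saline (adjusted p = 0.561).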

How the data were processed

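RNA-seq of aorta was analysed in 6 libraries, 3 of the exosome group and 3 of the saline group, as the treatment label of each sample gives it. The authors deposited a table of FPKM per gene symbol. The library kit is a SMARTER mRNA-Seq kit per the labels' protocols, and the submitters' processing notes name DESeq2 1.28.1 with no role. The aligner, build, annotation and strand setting were not given in the sources used here.

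From the deposited FPKM, genes with a mean of at least 1 FPKM were tested with limma 3.58.1 (R 4.3.3, intensity trend, two-sided) on log2(FPKM + 1), with Benjamini-Hochberg adjustment over 11742 genes at 0.05. Fold changes are on that log2 scale, which understates changes of low genes. Whole reads were recovered from the FPKM steps for 18429 of 18430 genes within 0.02 reads, with library totals set by the lengths of miRNA hairpins in RefSeq. They were used for depth, for the reads per library given above and for a check for duplicate libraries. They were also used for a limma-voom alternative, which called 1 gene. The limma script was tested on simulated data. Libraries of a group differed by far more than sampling noise, so none was a duplicate.

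The module and the gene lists were chosen with earlier results of these data known. Genes given in every library are the 8 with the smallest unadjusted p and the most abundant of each role, with others added for their role; of each related list, up to 3 genes with the smallest p are named. Alternatives changed the pseudocount, the minimum, the scaling, the model and the libraries. Protein sequences were not used here.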

Additional observations from a re-analysis of the deposited data

How the results depend on the processing

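With no replicates removed, the count of module genes called was 0 in each alternative other than library weights. That fit called 4 of the 33 (Pdk1, Egln3, Bnip3l and Ddit4), beside 3268 genes in all, or 27.8% of all genes tested. Its weights did not reach convergence. Of all genes, 1 was called, against 2 after quantile normalization, 0 with exosome 1 and 3 both left out, and 0 to 9 with single libraries left out. Single libraries left out called 0 module genes. The median log2 difference of the module, -0.12, was -0.0468 at the median of ratios, -0.0593 after quantile normalization, -0.0754 with library weights, and -0.1208 to -0.0386 with single libraries left out. Over 18 alternatives 16 of the 33 genes turned sign at least once and 17 did not. Hk1 was 0.0199 after rescaling to equal sums, 0.0530 at the median of ratios and -0.0711 to 0.0184 with single libraries left out. Aldoa was 0.0257 at the median of ratios and 0.0254 with library weights. Gapdh was -0.2236 with exosome 1 and 3 both left out and -0.0771 to 0.1846 with single libraries left out, and Rpe was 0.0090 with exosome 1 and 3 both left out. The cause was not tested. With the replicate block, 1 gene and 0 module genes were called, with a median of -0.12. Deviations of gene levels from their group means correlated at 0.07, 0.10 and -0.17 between same-numbered exosome and saline libraries. Between differently numbered libraries they correlated at -0.24 to 0.21, so the numbers are not shown to pair the libraries. Depth limits Ankrd37, Tpi1, Pfkfb4 and Car9, with 8 to 199 reads per library.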
